A study of Mus musculus with 7 samples.

Results

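Fibroblast growth factors (FGFs) and their receptors were followed in mouse neural crest cells (NCCs) through 8 genes chosen by their symbols. The ligand genes were Fgf8, Fgf10, Fgf15, Fgf17 and Fgf18, and the receptor genes were Fgfr1, Fgfr2 and Fgfr3, so that the members made up 8 of the 32285 gene identifiers counted. Single-cell RNA sequencing, which counts each captured RNA molecule once through its unique molecular identifier (UMI), had been carried out on EGFP-positive, DAPI-negative cells sorted from pools of embryos of a mixed background that the labels call Swiss-Webster. In these embryos the Cre recombinase driven by Wnt1 switches on an EGFP reporter at the ROSA locus, and all libraries share these alleles.

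The control libraries carried Wnt1-Cre/+;ROSA-EGFPf/+ and comprised 1 library at embryonic day (E) 8.5, 1 at E9.5 and 2 at E10.5. The other libraries, 1 at E9.5 and 2 at E10.5, were titled Tbx1 null, whereas their genotype field reads Wnt1-Cre/+;Tbx1+/-;ROSA-EGFPf/+. The sample summary published with the study gives them as Tbx1-/-. They are called null here after their titles and that summary, against the genotype field. The tissue differed by stage: the anterior part of the embryo with head and heart at E8.5, the pharyngeal apparatus with heart, arch 1 and adjacent neural tube at E9.5, and at E10.5 the arches behind the first with the heart and neural tube. In the null embryos at E10.5 the tissue taken was that below arch 1, with heart and neural tube. Stage and dissected tissue therefore cannot be told apart, and neither can a change of genotype and a change in which arches were present. Wnt1-Cre also labels the dorsal neural tube and midbrain, so a sort on EGFP keeps neural cells, while FGFs made by unlabelled endoderm, ectoderm and mesoderm were not measured.

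FGF ligands are secreted proteins that bind receptor tyrosine kinases together with heparan sulfate and act through the RAS and MAP kinase pathway, among others. Fgf8, Fgf17 and Fgf18 form one ligand subfamily, with Fgf8 known as the organizing signal of the midbrain-hindbrain boundary and as a survival signal for NCCs in the pharyngeal arches. Fgf10 is a mesenchymal ligand that signals to epithelium, and Fgf15 is an endocrine-type ligand transcribed in the embryonic neural tube. Tbx1, the gene mutated here, is a T-box transcription factor known to act in the pharyngeal tissues next to the NCCs, where Fgf8 and Fgf10 are among the genes linked to it.

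Each cell was placed by the UMIs of a few genes, none of them a member: mesenchymal cells held at least 2 UMIs of Twist1, Prrx1 and Prrx2 together, Sox10 cells at least 2 UMIs of Sox10, and neural cells at least 1 UMI of Sox2 and 0 of Twist1. Between 5587 and 9557 cells were kept per library, with 2233 to 7081 mesenchymal, 203 to 2012 Sox10 and 1374 to 4209 neural cells. Genes that mark mesenchymal cells (Pdgfra, Dlx2, Twist2, Col1a1 and Col1a2) or neural cells but were not used to define them were, summed, highest in their own class in every E9.5 and E10.5 library. Col1a2 alone went the other way in each of these libraries, for example at 206 UMIs per 1000000 in Sox10 against 104 in mesenchymal cells of control E10.5 replicate 2. Dlx2 did so in null E10.5 replicate 2 (48.8 against 35.7). At E8.5, 60.2% of mesenchymal cells were also Sox10 cells, and the 5 mesenchymal genes summed to 90.8 UMIs per 1000000 in mesenchymal cells against 90.9 in Sox10 cells, so at that stage these 2 classes were not distinct. Sox10 cells overlapped neural cells at E10.5 as well, where 54.8% to 64.5% of them met the neural rule. Levels are given as counts per 1000000 UMIs of a class (CPM), with exact Poisson 95% intervals that cover counting error only, and levels of different genes were not compared because 3′ tags are not scaled to length. Summed levels over all cells of a library ranged from 0.147 to 196 CPM for 5 erythroid genes, 1.36 to 3.60 for endothelial, 20.8 to 31.8 for epithelial, 8.94 to 42.7 for cardiomyocyte and 0.915 to 7.04 for pharyngeal mesoderm markers. Tbx1 itself stood at 0.545 CPM in the E8.5 library, 0.686 and 0.610 in the control and null E9.5 libraries, 5.14 and 3.76 in the control E10.5 libraries and 2.97 and 2.67 in the null E10.5 libraries. Counts at the 3′ end do not show whether the targeted allele makes protein and so do not check the genotype.

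**Figure D1:**
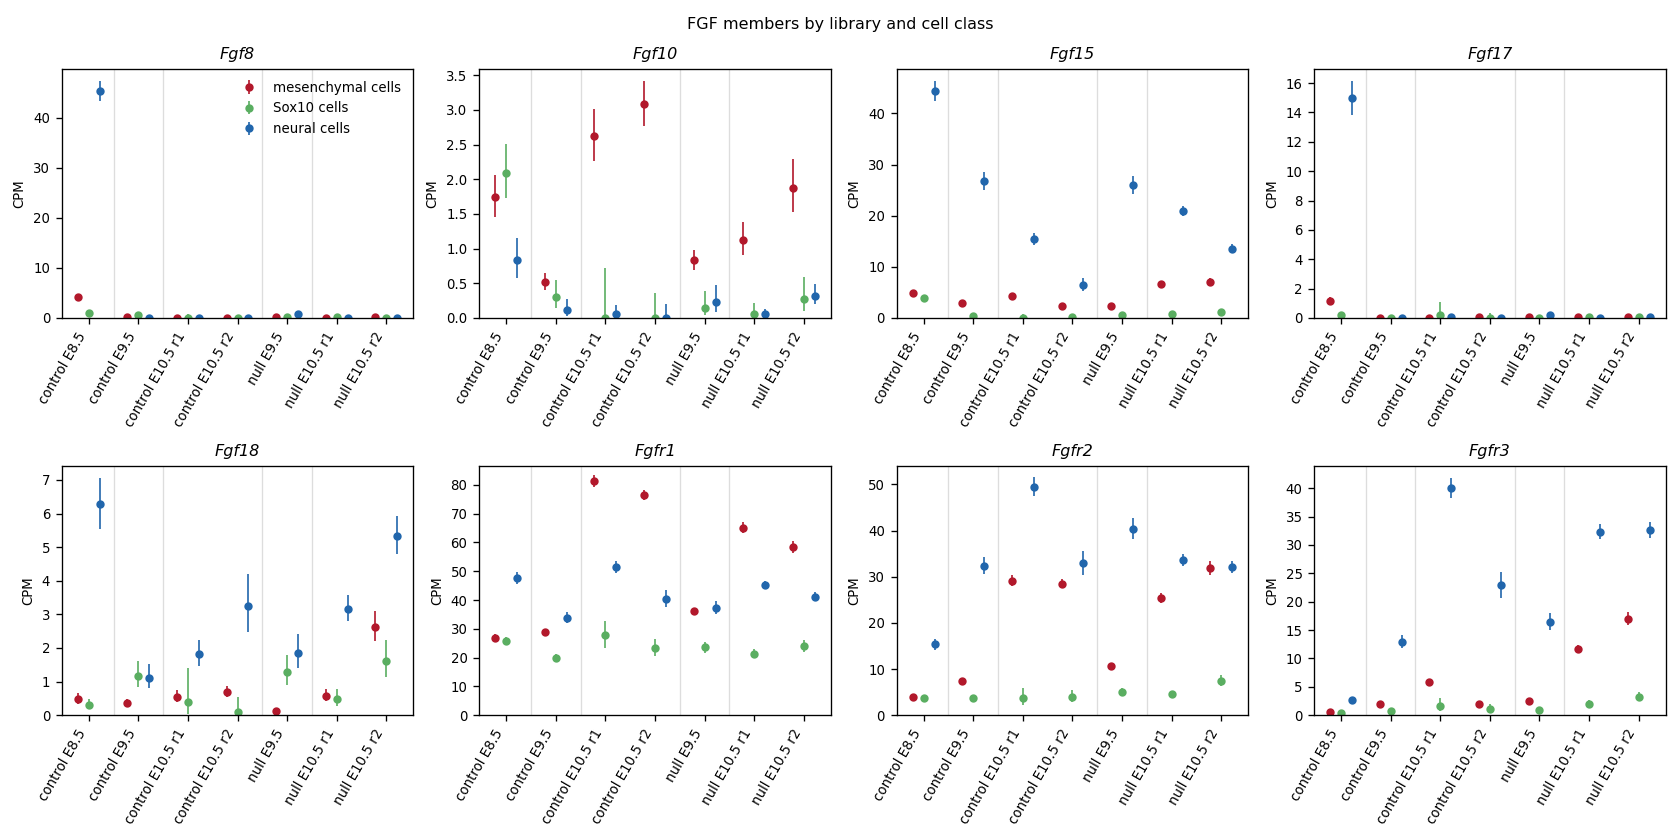
Levels of the 8 members (y axis, CPM) in the 7 libraries (x axis) in mesenchymal, Sox10 and neural cells. Points are library sums and bars are exact Poisson 95% intervals, and Fgf8 and Fgf17 stand out only in neural cells of the E8.5 library, at 45.4 and 15.0.

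Fgf8 and Fgf17, ligands of one subfamily, were transcribed almost only at E8.5. Fgf8 lies on chromosome 19 (chr19:45736798-45742915, minus strand, GRCm38) and Fgf17 on chromosome 14 (chr14:70636203-70642268, minus strand). In neural cells of the E8.5 library, 1962 UMIs of Fgf8 gave 45.4 CPM (95% interval 43.4 to 47.4). Neural cells of the control E9.5 and the 2 control E10.5 libraries each held 1 UMI of Fgf8, those of the null E10.5 libraries 5 and 3, and those of the null E9.5 library 24. These counts are 0.0212 to 0.783 CPM. The 24 UMIs of the null E9.5 library lay in 0.317% of its neural cells, and the other 5 later libraries held 1 to 5.

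Fgf17 followed the same course in neural cells, with 15.0 CPM (95% interval 13.8 to 16.2, 647 UMIs) at E8.5 and 0 to 0.196 in the other 6 libraries. A count of 0 allows up to 0.0819 CPM in control E9.5 neural cells and up to 0.168 in control E10.5 replicate 2. After each cell was thinned to 5000 UMIs, 11.2% of E8.5 neural cells (exact binomial 95% interval 9.83% to 12.6%) held a UMI of Fgf8 and 6.15% (5.16% to 7.27%) a UMI of Fgf17. In Sox10 cells of the same library, thinned to the same depth and given as a background, the shares were 0.447% for Fgf8 and 0.0994% for Fgf17. Median depths before thinning were 19846.5 UMIs in neural and 26238.5 UMIs in Sox10 cells.

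Mesenchymal cells of the E8.5 library lay between, with 4.14 CPM of Fgf8 (3.69 to 4.63) and 1.15 of Fgf17 (0.921 to 1.43). In the 6 later libraries the mesenchymal level was 0.0440 to 0.209 for Fgf8 and 0.00753 to 0.0876 for Fgf17. The fall after E8.5 spans a change of kit, of dissection and of library, with 1 library at E8.5, and was not tested.

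Within the E8.5 neural cells both ligands followed En1, a marker of the midbrain-hindbrain boundary. Cells with a UMI of En1 made up 62.5% of them, cells with a UMI of Otx2, a forebrain and midbrain gene, 60.7%, and cells with a UMI of a rostral Hox gene, marking hindbrain, 7.75%. These gates overlap, since 1 cell can hold more than 1 of the genes. Fgf8 reached 69.7 CPM in En1 cells, 16.2 in Otx2 cells and 4.85 in Hox cells, and Fgf17 reached 21.9, 3.56 and 1.43. The En1 level was 4.30 times the Otx2 level for Fgf8 (95% interval 3.87 to 4.78) and 6.16 times for Fgf17 (4.96 to 7.72). Against Hox cells the ratio was 14.4 (8.95 to 24.7) for Fgf8 and 15.4 (6.54 to 47.5) for Fgf17, the latter with 5 UMIs in Hox cells. Roof plate cells, those with a UMI of Lmx1a, were low for both, at 4.74 for Fgf8 and 1.90 for Fgf17. After E8.5, En1 cells were at most 1.96% and Otx2 cells at most 3.93% of neural cells, whereas Hox cells were 81.4% to 99.3%. The 41 En1 cells of the control E9.5 library held 0 UMIs of Fgf8, which allows up to 3.82 CPM, below the 69.7 of En1 cells at E8.5, and 54 UMIs of Fgf15 (68.8 CPM).

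**Figure D2:**
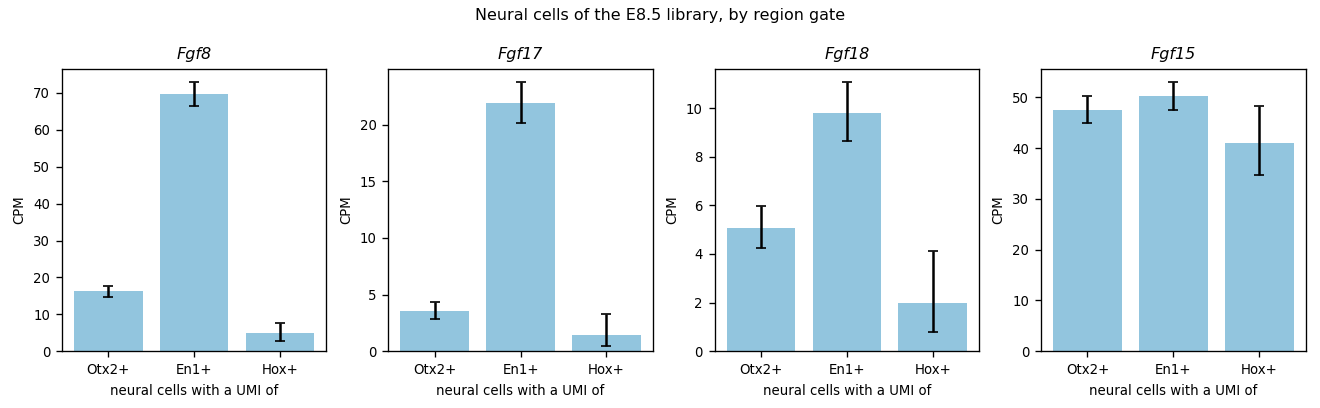
Levels of Fgf8, Fgf17, Fgf18 and Fgf15 (y axis, CPM, each panel with its own scale) in neural cells of the E8.5 library with a UMI of Otx2, En1 or a rostral Hox gene. Bars are levels with exact Poisson 95% intervals, and En1 cells are highest for Fgf8 (69.7), Fgf17 (21.9) and Fgf18 (9.80), while Fgf15 differs little (41.1 to 50.2).

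Fgf18, the third ligand of that subfamily, shared the E8.5 pattern but not the later one. It lies at chr11:33117430-33147400 on the minus strand. Neural cells held 6.27 CPM at E8.5 (5.54 to 7.06), with 9.80 in En1 cells, 5.06 in Otx2 cells and 2.00 in Hox cells, and the En1 level was 1.94 times the Otx2 level (1.57 to 2.40). Unlike Fgf8 and Fgf17, it was still found in neural cells of every later library, at 1.12 in the control E9.5 library, 1.86 in the null E9.5 library, 1.82 and 3.25 in the control E10.5 libraries and 3.17 and 5.35 in the null E10.5 libraries.

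At the later stages Fgf18 sat in neurons, defined as neural cells with at least 2 UMIs of Elavl3 and Elavl4, genes for neuronal RNA-binding proteins. Neurons held 11.9 CPM of Fgf18 in the control E9.5 library against 0.178 in the other neural cells, 19.2 against 0.285 in the null E9.5 library, 4.04 against 0.0383 and 9.17 against 0.0860 in the control E10.5 libraries, and 7.96 against 0.145 and 8.45 against 0.724 in the null E10.5 libraries. The neuron level was above the level of other neural cells in 6 of 6 libraries, and at E8.5 it was not (4.23 against 6.36). The share of neurons among neural cells was 4.11% in the E8.5 library, 8.79% and 9.04% at E9.5 and 35.9% to 58.9% at E10.5. Levels of Fgf18 in mesenchymal and Sox10 cells stayed between 0.0977 and 2.62 CPM. The highest of these was the mesenchymal level of null E10.5 replicate 2, in which the neural check genes also summed highest among mesenchymal cells, at 469.5 CPM.

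Fgf15 was the ligand with the broadest neural expression. It lies at chr7:144896531-144900953 on the plus strand, with 2 annotated genes on the other strand. In neural cells it stood at 44.4 CPM at E8.5, 26.8 in the control and 25.9 in the null E9.5 library, 15.5 and 6.45 in the control E10.5 libraries, and 20.9 and 13.5 in the null E10.5 libraries. The thinned share of neural cells with a UMI of Fgf15 was 16.7% at E8.5, 9.63% and 9.02% at E9.5 and 2.52% to 7.00% at E10.5, so level and share were lower at each later stage. That order was not counted over all genes, and kit and dissected tissue changed with it. The later test between E9.5 and E10.5 did not pass for neural Fgf15. In Sox10 cells the share was 0% to 1.54%.

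At E8.5 Fgf15 showed little of the regional difference of the Fgf8 subfamily, with 50.2 CPM in En1 cells and 47.6 in Otx2 cells, a ratio of 1.06 (0.978 to 1.14). Against the 41.1 CPM of Hox cells the En1 level was 1.22 times as high (1.03 to 1.46). At E9.5 the En1 level of Fgf15 was above the Hox level, at 68.8 against 27.5 CPM in the control library (ratio 2.50, 1.86 to 3.29) and 56.4 against 27.0 in the null library (2.09, 1.23 to 3.33), on 54 and 18 UMIs in En1 cells. Neurons held less Fgf15 than other neural cells at E9.5 and E10.5, at 0.287 to 0.586 times their level, but not at E8.5 (0.988, 0.783 to 1.23). Mesenchymal cells held 2.32 to 6.99 CPM. In mesenchymal cells that met neither other class rule the range was 1.58 to 5.78. Sox10 cells held 3.83 at E8.5 and 0 to 1.21 later.

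Fgf10 was the mesenchymal ligand. It lies at chr13:118669791-118792115 on the plus strand, with 1 annotated gene on the other strand. Mesenchymal cells held 1.74 CPM at E8.5, 0.512 in the control and 0.833 in the null E9.5 library, 2.62 and 3.08 in the control E10.5 libraries and 1.12 and 1.88 in the null E10.5 libraries. Few cells carried it: 0.207% to 1.58% of mesenchymal cells held a UMI at 5000 UMIs per cell, against 0% to 0.385% of neural cells. Sox10 cells held 2.09 CPM at E8.5, where they overlap the mesenchymal class, and 0 to 0.302 later, and neural cells held 0 to 0.833. In control E10.5 Sox10 cells the count of Fgf10 was 0 in both libraries, which allows up to 0.587 and 0.293 CPM.

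Fgfr1 lies at chr8:25513654-25575718 on the plus strand, with 1 annotated gene on the other strand. Mesenchymal cells held 26.9 CPM of Fgfr1 at E8.5, 28.9 in the control and 36.1 in the null E9.5 library, 81.3 and 76.5 in the control E10.5 libraries and 65.2 and 58.3 in the null E10.5 libraries. The 4 E10.5 libraries lay above the 3 earlier ones. The share of all genes ordered by stage in this way was not counted, and the later test between E9.5 and E10.5 did not pass. Control lay above null at E10.5, where the genotypes did not overlap for 50% of all genes. Neural cells ranged from 33.9 to 51.3 and Sox10 cells from 19.8 to 27.8, the latter with no order by stage. In neural cells the E10.5 libraries lay above the E9.5 ones (33.9 and 37.3), but the E8.5 level of 47.6 broke the order. The thinned share of mesenchymal cells with a UMI of Fgfr1 was 12.9% at E8.5, 13.4% and 16.3% at E9.5 and 24.4% to 31.8% at E10.5.

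Fgfr2 is annotated at chr7:130162451-133123350 on the minus strand in the Ensembl-based models (GENCODE vM21), a span of 2960900 bases that runs through 36 other genes on its strand. RefSeq ends the gene at 130266808, a span of 104358 bases, so reads of neighbouring genes could have been counted for or against Fgfr2 and its values are uncertain to that extent. Mesenchymal cells held 3.87 CPM of Fgfr2 at E8.5, 7.50 in the control and 10.6 in the null E9.5 library, 29.1 and 28.4 in the control E10.5 libraries and 25.3 and 31.9 in the null E10.5 libraries. Again the 4 E10.5 libraries lay above the earlier ones, an order that was not counted over all genes. Neural cells held 15.4 at E8.5 and 32.1 to 49.5 later, and Sox10 cells 3.65 to 7.46.

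Roof plate cells, the Lmx1a-positive dorsal midline of the neural tube, held the highest Fgfr2 among the neural cells. Their level was 41.2 CPM at E8.5, 80.2 and 86.5 in the control and null E9.5 libraries, 127 and 131 in the control E10.5 libraries and 73.0 and 95.9 in the null E10.5 libraries. That is 2.14 to 3.97 times the level of all neural cells of the same library, in 7 of 7 libraries.

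Fgfr3 lies at chr5:33721674-33737068 on the plus strand, with 1 annotated gene on the other strand. Neural cells held 2.66 CPM at E8.5, 13.0 and 16.5 in the control and null E9.5 libraries, 40.0 and 22.9 in the control E10.5 libraries and 32.3 and 32.6 in the null E10.5 libraries. All 4 E10.5 values lay above the E9.5 values, which lay above the E8.5 value. That order was not counted over all genes, and the later test between E9.5 and E10.5 did not pass for neural Fgfr3. Mesenchymal cells held 0.624 at E8.5, 1.99 and 2.56 at E9.5, 5.86 and 1.98 in the control E10.5 libraries and 11.6 and 17.0 in the null E10.5 libraries. Sox10 cells stayed between 0.399 and 3.28.

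Fgfr2 and Fgfr3 both had their highest class level in neural cells, the class defined by Sox2, and their promoter windows are shown for that reason. The windows run from 250 bases before to 50 after the RefSeq start on GRCm38.p6, and 4 of the 8 members had 1 or more. The Fgfr2 window lies at chr7:130266759-130267058 on the minus strand, and the 2 Fgfr3 windows at chr5:33721474-33721773 and chr5:33722056-33722355 on the plus strand. Capitals mark the letters ACAATTA, where a match to ACAAT, the core bound by SOX proteins, overlaps a match to AATTA, the reverse complement of TAATT, a core bound by many homeodomain proteins.
Fgfr2: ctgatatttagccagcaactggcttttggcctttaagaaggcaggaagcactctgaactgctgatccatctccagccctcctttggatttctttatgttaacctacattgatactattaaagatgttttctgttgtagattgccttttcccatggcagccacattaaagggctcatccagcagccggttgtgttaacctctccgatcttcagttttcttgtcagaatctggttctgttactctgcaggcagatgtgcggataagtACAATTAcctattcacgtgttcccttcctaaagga
Fgfr3, upstream window: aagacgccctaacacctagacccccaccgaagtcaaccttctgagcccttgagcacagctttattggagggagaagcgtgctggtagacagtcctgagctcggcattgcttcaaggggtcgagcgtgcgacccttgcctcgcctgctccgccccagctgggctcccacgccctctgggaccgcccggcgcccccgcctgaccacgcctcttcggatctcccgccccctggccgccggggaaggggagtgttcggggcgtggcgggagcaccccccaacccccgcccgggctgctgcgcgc
Fgfr3, downstream window: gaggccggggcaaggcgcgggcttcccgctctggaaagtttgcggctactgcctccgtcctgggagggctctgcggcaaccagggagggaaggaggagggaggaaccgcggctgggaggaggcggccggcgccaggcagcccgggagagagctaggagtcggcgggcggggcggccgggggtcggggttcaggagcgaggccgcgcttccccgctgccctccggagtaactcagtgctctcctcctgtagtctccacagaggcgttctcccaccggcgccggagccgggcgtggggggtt
Both strands were searched. The Fgfr2 window held 1 match to each motif and the Fgfr3 windows 0, and the windows were 43.7%, 69.7% and 73% G or C. The windows of Fgf10 and Fgf18, not shown, also held 0 matches to either motif. Of all 32851 windows of 300 bases, 31.0% held ACAAT or ATTGT and 27.0% TAATT or AATTA, so the match in the Fgfr2 window is of a kind found in many promoters and is a description only.

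The share of cells with a UMI of any of the 3 receptors, thinned to 5000 UMIs, was 15.1% of mesenchymal cells in the E8.5 library, 17.2% and 21.7% at E9.5 and 38.5% to 42.3% at E10.5. In neural cells it was 26.0% at E8.5 and 31.3% to 45.5% later, and in Sox10 cells 10.7% to 15.7%. Neural cells with UMIs of 2 or more receptors went from 2.16% at E8.5 to 8.54% to 12.1% at E10.5. A UMI of any of the 5 ligands was found in 30.3% of the E8.5 neural cells and in 4.20% to 10.6% in later libraries, and in at most 4.81% of mesenchymal cells. Receptor UMIs were thus found in more cells than ligand UMIs in mesenchymal and Sox10 cells of all 7 libraries.

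The classes were compared within the 6 libraries of E9.5 and E10.5, using cells that met exactly 1 class rule, with edgeR's quasi-likelihood test on library sums, the library as a block, and Benjamini-Hochberg adjustment over all genes tested. A member that passes the low-count filter only through the class where it is high has to differ, so calls are counted over members that pass it in both classes alone, and the rest are given as levels. The shares of all genes given beside such counts, here and below, cover every gene tested and were not limited in this way. Relative to neural cells, mesenchymal cells had more Fgfr1 and less Fgf15, Fgf18, Fgfr2 and Fgfr3, a call for 5 of 5 such members where 49% of all genes tested were called. Fgf17 was too low to be tested in this or any comparison, and Fgf8 did not pass (log2 difference 0.29 ± 0.89 SE). Fgf10 was 0.580 to 3.12 CPM in mesenchymal against 0 to 0.339 in neural cells, with 63 to 350 UMIs per library against 0 to 14. The levels did not overlap over the 6 libraries, and no test is drawn on because Fgf10 passed the filter in mesenchymal cells alone.

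Fgfr3 was 1.54 to 11.1 CPM in mesenchymal and 14.4 to 42.4 in neural cells of 1 class, lower by a log2 difference of -3.12 ± 0.31 (edgeR adjusted p = 0.000118). Fgfr2 was lower by -1.15 ± 0.25 (edgeR adjusted p = 0.00613), from 6.75 to 32.4 in mesenchymal and from 36.1 to 53.1 in neural cells. Both receptors were lower in mesenchymal cells of 6 of 6 libraries. Fgfr1 was 29.6 to 82.8 in mesenchymal and 37.7 to 51.6 in neural cells, higher by 0.38 ± 0.11 (edgeR adjusted p = 0.0249). It was higher only in the 4 E10.5 libraries, and this call was lost when any 1 of these 4 was left out (edgeR adjusted p = 0.0520 to 0.0776) and without scaling factors (0.124). Fgf15 was lower in mesenchymal cells by -2.94 ± 0.31 and Fgf18 by -2.56 ± 0.42 (edgeR adjusted p = 0.000148 and 0.00154).

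Relative to Sox10 cells, mesenchymal cells had more of 2 of the 3 members that passed the filter in both classes, where 31.4% of all genes tested were called. Fgfr1 was higher by 1.51 ± 0.13 and Fgfr2 by 1.80 ± 0.24 on the log2 scale (edgeR adjusted p = 2.8e-05 and 0.00041), and Fgf18 (-1.44 ± 0.82) did not pass. Fgf8, Fgf10, Fgf15 and Fgfr3 passed the filter only in mesenchymal cells, and Sox10 cells held at most 11, 4, 4 and 17 UMIs per library. Fgf10 was 0 to 0.716 CPM in Sox10 cells of 1 class, with 0 UMIs in 3 of the 6 libraries. Fgf15 was 0 to 0.477 in Sox10 against 1.58 to 3.53 in mesenchymal cells, and Fgfr3 0 to 2.15 against 1.54 to 11.1.

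Sox10 cells in turn were below neural cells in 2 of the 3 members that passed in both classes, where 48.6% of all genes tested were called. Fgfr1 was lower by a log2 difference of -1.16 ± 0.08 and Fgfr2 by -2.95 ± 0.15 (edgeR adjusted p = 2.08e-06 and 5.22e-07). Fgfr3 and Fgf15, which passed in neural cells alone, stood there at 14.4 to 42.4 and 10.1 to 30.5 CPM. Each of the 3 receptors was lowest in Sox10 cells among the 3 classes, in 6 of 6 libraries. The Sox10 cells of 1 class used here were 21.4% to 39.1% of all Sox10 cells by library, with 64 cells in control E10.5 replicate 1. A library held as few as 7 UMIs of Fgfr2 and 0 of Fgfr3 in them.

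**Figure D3:**
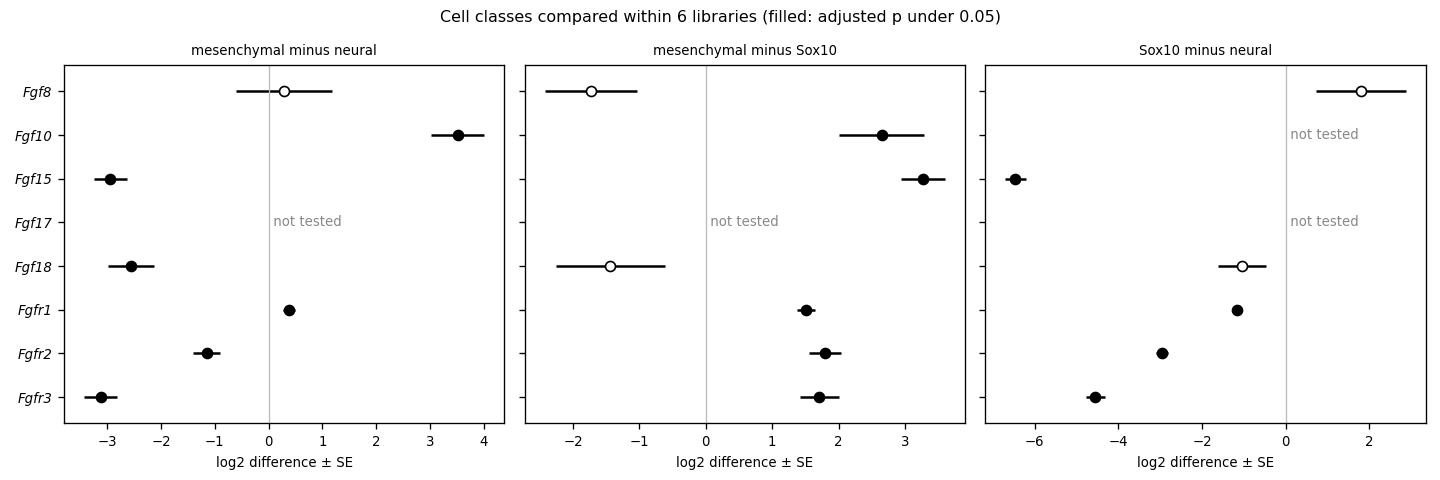
Log2 differences between cell classes (x axis, points with bars of 1 SE) for the 8 members (y axis) in 6 libraries, filled where the edgeR adjusted p is under 0.05. Fgf15 and Fgfr3 are lower in mesenchymal than in neural cells (-2.94 and -3.12), and the filled points of Fgf10, and of Fgf15 and Fgfr3 against Sox10 cells, belong to genes that passed the low-count filter in 1 class only.

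The other genes of the pathway were taken as 4 lists: 17 other FGF ligands, 24 receptor partners (co-receptors, heparan sulfate proteins and their enzymes), 17 transducers and 15 target and feedback genes. List genes were not checked for passing the low-count filter on both sides of a comparison. Calls between classes or positions may therefore include genes that passed through 1 side only and had to differ. Between mesenchymal and neural cells, 12 of the 15 target and feedback genes were higher and 1 lower in mesenchymal cells, with a median log2 difference of 2.20 against 0.03 over all genes. Etv4 (4.91 ± 0.33) and Etv5 (4.01 ± 0.34), ETS factors switched on by FGF signals, were higher together with Spry4 (4.62 ± 0.33), Spry1 (4.02 ± 0.18) and Dusp6 (3.26 ± 0.31), which dampen the pathway. Cnpy1 (-2.09 ± 0.36) was the gene lower in mesenchymal cells. Of the receptor partners 13 of 22 tested were higher and 6 lower, among them the decoy-like receptor Fgfrl1 (2.05 ± 0.12), of the other ligands 4 of 11 were higher, led by Fgf5 (5.17 ± 0.59), and 3 lower, and of the transducers 4 of 17 were higher and 4 lower. With 49% of all genes called, the 8 transducers called of 17 stood at the background.

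Sox10 cells, with the lowest receptor levels, also had 10 of 14 target and feedback genes above neural cells and 0 below, with a median log2 difference of 1.43 against -0.02 over all genes. Dusp6 (3.19 ± 0.20), Spry4 (3.58 ± 0.43), Etv5 (3.45 ± 0.39) and Egr1 (3.58 ± 0.54) were among those higher in Sox10 cells. Between mesenchymal and Sox10 cells, 5 of 14 were higher in mesenchymal cells and 2 lower (median 0.54 against 0.07). Spry1 (3.41 ± 0.35) and Il17rd (1.85 ± 0.14), both feedback inhibitors, were higher in mesenchymal cells and Egr1, an immediate early gene, was lower (-3.04 ± 0.54). Across the remaining lists, mesenchymal cells differed from Sox10 cells in 17 of 22 receptor partners (11 higher), 8 of 17 transducers (5 higher) and 4 of 8 ligands (2 higher), and Sox10 from neural cells in 16 of 20 (9 higher), 8 of 17 (4 higher) and 3 of 6 (1 higher). Over all genes 31.4% were called between mesenchymal and Sox10 cells and 48.6% between Sox10 and neural cells, so that the transducers and ligands of the latter comparison stood at the background.

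E10.5 was compared with E9.5 in each class with genotype held, on 2 libraries of E9.5 and 4 of E10.5. In mesenchymal cells 1 of the 7 members tested was called, against 23.6% of all genes. Fgfr2 rose from 7.50 and 10.6 to between 25.3 and 31.9 CPM, by 1.16 ± 0.20 on the log2 scale (edgeR adjusted p = 0.0115). The call was lost without the control E9.5 library (0.86, edgeR adjusted p = 0.121), a fit in which 0 genes were called at all, and in caudal Hox mesenchymal cells alone (0.62, edgeR adjusted p = 0.0791) or those of them that met 1 class rule (0.50, 0.136), subsets chosen after the data were seen. The part of arch 1 cells, present at E9.5 and left out at E10.5, cannot be told apart from stage.

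Fgfr1 differed between the stages by 0.59 ± 0.21 in mesenchymal cells (edgeR adjusted p = 0.0813), Fgf10 by 1.06 ± 0.46 and Fgfr3 by 1.16 ± 0.51 (both 0.132), and Fgf8 by -1.45 ± 0.57 (0.103). Each of these members, and Fgf15, was called under at least 1 alternative run, and Fgf18 under none. Fgf10 was called with thinned cells (1.46, edgeR adjusted p = 0.0368), in caudal Hox cells alone (2.32, 0.00852), where it was the 1 member called, and in those of 1 class (2.22, 0.0100). Without the control E9.5 library its difference was 0.26 and without the null E9.5 library 2.02 (edgeR adjusted p = 0.740 and 0.0689). Scaling mattered here. Without the TMM factors that centre the libraries on each other, an alternative added after the data were seen, the median gene differed by 0.58 in mesenchymal, 0.46 in Sox10 and 0.41 in neural cells, against 0.07 in each with them. Of the genes then called, 91.3%, 90.4% and 94.0% were higher at E10.5, against 48.4%, 53.0% and 61.4%. Under that scaling 3 mesenchymal members were called: Fgf10 (1.58), Fgfr1 (1.10) and Fgfr2 (1.68), with edgeR adjusted p = 0.0380, 0.0107 and 0.00559, where 38.6% of all genes were called. CPM carry no such factors, so the rise of mesenchymal Fgfr1 and Fgfr2 and of neural Fgfr3 on that scale includes the shift of the median gene.

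In Sox10 cells 0 of the 5 members tested were called, where 24.4% of all genes were; 1 of the 5 had an unadjusted p under 0.05, against 38.2% of all genes, and DESeq2 called 0, against 26.5%. In neural cells 0 of the 5 were called by edgeR, where 9.03% of all genes were, 3 of the 5 had an unadjusted p under 0.05, against 30.9%, and DESeq2 called 2, against 17.9%. Neural Fgf15 differed by -1.27 ± 0.34 (edgeR adjusted p = 0.0515) and Fgfr3 by 0.78 ± 0.25 (0.0835), Fgfr1 by -0.02 ± 0.18 and Fgfr2 by -0.33 ± 0.24. Leaving out null E10.5 replicate 1, control E10.5 replicate 1 or control E10.5 replicate 2 brought Fgf15 past the threshold (edgeR adjusted p = 0.0414, 0.0239 and 0.0263). Leaving out null E10.5 replicate 2, null E9.5 or control E9.5 took it further away (0.114, 0.243 and 0.417), the last 2 in fits with 4 and 0 genes called. Fgf15 was also called with DESeq2 size factors, DESeq2, no filter on low counts, doublets kept, thinned cells, cells of 1 class and stricter gates (adjusted p = 2.11e-07 to 0.0495), and not without TMM factors (0.0735), at 200 genes and 5% mitochondrial UMIs (0.0793) or without neurons (0.0951). Neurons went from 8.79% and 9.04% of neural cells at E9.5 to between 35.9% and 58.9% at E10.5, and in neural cells without neurons, a subset chosen after the data were seen, Fgfr3 differed by 1.00 (edgeR adjusted p = 0.0450). Fgfr3 was likewise called without TMM factors, with DESeq2, no filter, thinned cells and cells of 1 class and without control E10.5 replicate 2 (adjusted p = 0.00459 to 0.0438), and not with DESeq2 size factors, doublets kept, 200 genes and 5% mitochondrial UMIs, stricter gates or any other 1 library left out (0.0581 to 0.516).

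Between the stages 23.6% of all genes were called in mesenchymal cells, 24.4% in Sox10 and 9.03% in neural cells. The pathway lists of each class are read against its own share. Of 15 target and feedback genes 6 fell and 1 rose at E10.5 (median -0.73 against 0.07 over all genes). Spry4 fell by 2.16, Spry1 by 1.49, Spry2 by 1.21, Etv5 by 1.10, Dusp6 by 1.02 and Myc by 2.46 on the log2 scale, with SEs of 0.25 to 0.43, and Spred3 rose by 1.43. Without TMM factors 2 fell (Spry4 and Myc) and 1 rose. The count also depends on the E9.5 libraries. Leaving out either of them leaves 1 library of that stage, and calls over all genes fell as well, so the lost calls single out no gene of the list. Other ligands rose in 5 of 12 (Fgf1, Fgf5, Fgf9, Fgf11 and Fgf13, with Fgf5 at 3.87 ± 0.46), receptor partners in 5 of 22 with 2 lower, and transducers in 1 of 17 with 1 lower. Sox10 cells showed 2 target and feedback genes up and 3 down of 14, receptor partners 6 up and 3 down of 20, ligands 2 up of 4 and transducers 1 up of 17. Neural cells showed 1 target gene up of 15 (Il17rd, 1.02 ± 0.24), 1 ligand down of 9 (Fgf3, -1.67 ± 0.35), 3 partners up of 21 and 0 of 17 transducers.

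Position within the mesenchyme was read from Dlx5 and Dlx6, which mark the distal part of an arch, and from Hox paralogs 3 and 4, which mark arch 3 and behind. Distal cells had more Fgf10 and Fgfr1 and less Fgf18, Fgfr2 and Fgfr3 than cells with neither gene in the same libraries. That is a call for 5 of the 7 members tested, where 35% of all genes were called. All 5 are among the 6 members that passed the low-count filter in both kinds of cell. Fgfr3 was 0.590 to 2.57 CPM in distal cells and 2.90 to 18.0 in the others, lower in 6 of 6 libraries by a log2 difference of -2.79 ± 0.24 (edgeR adjusted p = 0.000314). Fgfr2 was 3.98 in distal cells of the control E9.5 library against 9.80 in the others, 6.30 against 14.4 in the null E9.5 library, 19.8 against 40.0 and 21.5 against 35.7 in the control E10.5 libraries, and 18.0 against 28.1 and 27.4 against 32.2 in the null E10.5 libraries. Fgfr2 was lower in distal cells of all 6 libraries, by -0.76 ± 0.12 (edgeR adjusted p = 0.0025).

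Fgfr1 went the other way, with a small difference of one sign: it was 30.0 to 85.5 CPM in distal and 28.1 to 76.3 in other cells, higher in 6 of 6 libraries by 0.26 ± 0.03 (edgeR adjusted p = 0.00121). Fgf18 was lower in distal cells by -2.04 ± 0.33 (edgeR adjusted p = 0.00278), with 0.0268 to 0.857 against 0.199 to 2.75 CPM. Cells with neither gene overlapped the other classes more than distal cells did, as 69.6% to 97.6% of them, by library, met the mesenchymal rule alone against 94.2% to 99.9%. In cells that met the mesenchymal rule alone, a restriction chosen after the data were seen, Fgfr3 (-2.27), Fgfr2 (-0.70), Fgf18 (-2.08) and Fgfr1 (0.20) were still called (edgeR adjusted p = 6.1e-05 to 0.00301). Fgf10 was higher in distal cells of 5 of 6 libraries, by 0.82 ± 0.24 (edgeR adjusted p = 0.0284). The exception was null E10.5 replicate 2, at 1.14 against 1.93 with 4 UMIs in distal cells. The Fgf10 call was lost when control E9.5, null E9.5, control E10.5 replicate 1 or null E10.5 replicate 1 was left out (edgeR adjusted p = 0.0659 to 0.0923), without TMM factors (0.0570), in cells that met the mesenchymal rule alone (0.0747) and with thinned cells (0.20, edgeR adjusted p = 0.708). A gate on any UMI takes up deeper cells, and with thinned cells 3 of the 5 member calls stood, Fgf10 was lost and Fgf18 was too low to be tested.

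Caudal Hox cells had more Fgf15 and Fgfr3 than Hox-free cells, a call for 2 of the 5 members that passed the low-count filter in both kinds of cell, where 7.58% of all genes were called. Fgfr3 stood at 3.05 against 0.976 CPM in the control E9.5 library, 5.20 against 1.30 in the null E9.5 library, 9.66 against 3.83 and 3.24 against 2.74 in the control E10.5 libraries, and 13.4 against 12.0 and 17.3 against 5.88 in the null E10.5 libraries. It was higher in caudal Hox cells in 6 of 6 libraries, by 1.12 ± 0.23 (edgeR adjusted p = 0.0174). Fgf15 was higher by 2.15 ± 0.48 (edgeR adjusted p = 0.0236). Fgf18 passed the filter in caudal Hox cells alone, at 0.405 to 2.90 CPM against 0 to 0.923 in Hox-free cells with at most 11 UMIs per library, and went the other way in null E10.5 replicate 1 (0.644 against 0.923). Caudal Hox cells overlapped the other classes more than Hox-free cells did: 62.9% to 95.9% of them, by library, met the mesenchymal rule alone, against 92.6% to 99.8%. In cells that met that rule alone, a restriction chosen after the data were seen, Fgf15 was still called (2.39, edgeR adjusted p = 0.0235) and Fgfr3 was not (0.86, 0.191).

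Neither call stood in every fit with 1 library left out. Without null E10.5 replicate 2 both were lost (edgeR adjusted p = 0.0677 for Fgf15 and 0.0643 for Fgfr3). Fgf15 was also lost without null E9.5 (0.0614), and Fgfr3 without control E10.5 replicate 1 or control E9.5 (0.0536 and 0.0507). Fgfr2 did not pass (-0.40 ± 0.27): it was higher in caudal Hox cells at E9.5 (9.04 against 6.37 and 16.5 against 8.04) and lower at E10.5, where Hox-free cells held 58.7 and 51.0 CPM in the control libraries and 44.0 and 43.5 in the null libraries, against 26.6, 20.5, 24.5 and 30.7. With thinned cells Fgfr2 alone was called among the members (-0.76, edgeR adjusted p = 0.0194), and Fgf18 was too low to be tested.

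Hand2, Isl1 and Gata3 mark NCCs of the outflow tract, but the study also found them in other NCCs, among them distal arch cells at E9.5. Mesenchymal cells with Hand2 and either Isl1 or Gata3 numbered 274 to 1138 per library at E9.5 and E10.5 and may include both kinds. Their Fgfr2 level was 7.90 and 11.7 CPM in the control and null E9.5 libraries, 49.3 and 51.2 in the control E10.5 libraries and 26.3 and 34.1 in the null E10.5 libraries. Control and null libraries did not overlap at E10.5 for 3 of the 6 members with at least 20 UMIs in these cells (Fgf10, Fgf18 and Fgfr2), where 45.1% of all genes did not, and this subset was not tested.

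Among the pathway lists, distal cells had 7 of 15 target and feedback genes higher and 4 lower (median 0.14 against 0.02 over all genes). Etv4 (0.63 ± 0.12), Etv5 (0.52 ± 0.08), Spry4 (0.64 ± 0.16) and Il17rd (0.50 ± 0.06) were higher in distal cells, and Egr1 (-1.10 ± 0.32) was lower. Without TMM factors the counts were 4 and 4, and among all called genes 24.6% were then higher in distal cells against 59.7% with them. Receptor partners were higher in 5 and lower in 7 of 22, other ligands in 1 and 4 of 12, and transducers in 5 and 1 of 17. Over all genes 35% were called by Dlx5 or Dlx6, a share at which the transducers stood and near which the ligands did. Caudal Hox cells had 1 of 15 target genes higher (Etv4, 0.99 ± 0.19), 2 of 11 ligands higher, 1 of 22 partners higher and 5 lower, and 0 of 17 transducers called, where 7.58% of all genes were.

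**Figure D4:**
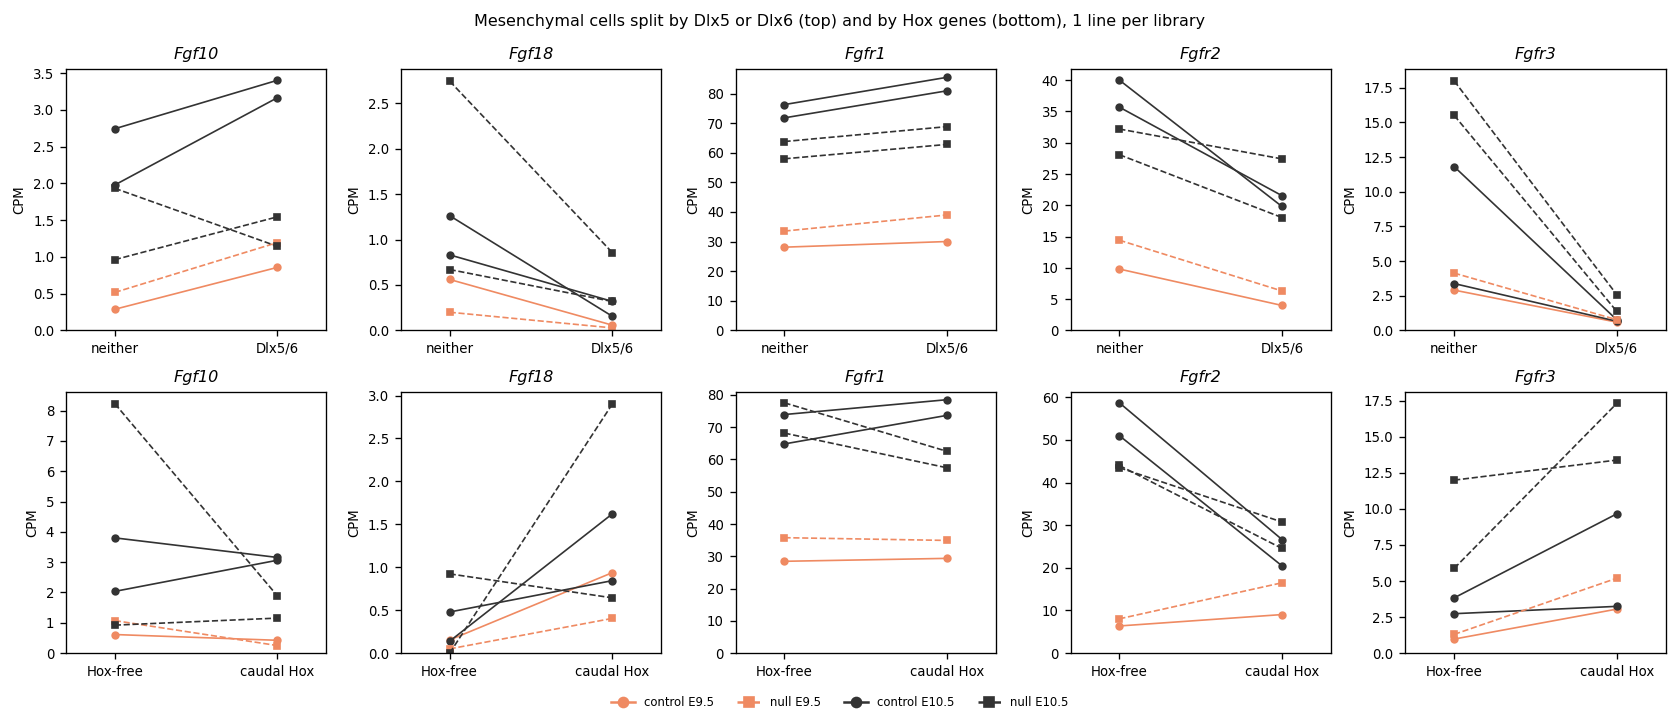
Levels (y axis, CPM) of Fgf10, Fgf18, Fgfr1, Fgfr2 and Fgfr3 in mesenchymal cells with and without Dlx5 or Dlx6 (upper row) and in Hox-free and caudal Hox cells (lower row), with 1 line per library. Fgfr3 and Fgfr2 fall in Dlx5/6 cells in all 6 libraries, and Fgfr3 is higher in caudal Hox cells in all 6.

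The study set null against control embryos to ask how loss of Tbx1 alters the NCCs. At E9.5 there was 1 library per genotype, so no test is possible and ratios carry counting error only. The control E9.5 library was made with kit v3.1 and the null one with v3, so that kit and genotype cannot be told apart at that stage. A ratio past 1.5-fold in either direction was found for 2 of the 7 members with at least 20 UMIs in mesenchymal cells, against 12.3% of all genes. Fgf10 was at 0.833 in the null and 0.512 CPM in the control library, a ratio of 1.63 (95% interval 1.21 to 2.21). Fgf18 was at 0.119 against 0.361, a ratio of 0.329 (0.183 to 0.570). The mesenchymal ratio of the receptors was 1.25 for Fgfr1, 1.42 for Fgfr2 and 1.29 for Fgfr3.

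In Sox10 cells at E9.5 Fgf15, Fgf18, Fgfr1, Fgfr2 and Fgfr3 were at 1.35, 1.09, 1.19, 1.38 and 1.31 times the control level. None of these passed the fold, where 11% of all genes did. Sox10 Fgf8, with 5 UMIs in the null library against 18 in the control library, reached the minimum of 20 UMIs mainly through the control library. It is therefore not counted and no size is given. Neural Fgf8, with 24 UMIs in the null library against 1 in the control library, reached the minimum of 20 UMIs through the null library alone, so it is not counted and no size is given. Of the other 5 members in neural cells 1 passed the fold, against 9.81% of all genes, namely Fgf18 at 1.66 times the control level (1.09 to 2.55). Fgfr1, Fgfr2 and Fgfr3 were at 1.10, 1.25 and 1.27 times the control level in neural cells. All 3 receptors were thus higher in the null E9.5 library in the 3 classes, none past 1.5-fold, and the interval of Fgfr3 in Sox10 cells (0.696 to 2.46) included 1. The share of all genes higher in the null library in the 3 classes was not counted. The classes also share cells, as 59.3% of the Sox10 cells of the null E9.5 library were mesenchymal cells too.

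Among the E10.5 libraries null replicate 1 was made with kit v3 and the others with v3.1, so kit differed within the null pair. At E10.5, with 2 libraries per genotype, 0 of the 6 members tested in mesenchymal cells were called by edgeR, where 0.1% of all genes (16 of 15925) were. Of the 6, 4 had an unadjusted p under 0.05, against 15% of all genes, and DESeq2 called 1 of them, Fgfr3, against 4.42% of all genes. Fgf10 had means of 2.85 ± 0.327 (SD, n = 2) in control and 1.5 ± 0.536 CPM in null mesenchymal cells, a log2 difference of -1.14 ± 0.35 (edgeR adjusted p = 0.251). Fgfr1 had means of 78.9 ± 3.37 and 61.7 ± 4.88 (log2 difference -0.53 ± 0.21, edgeR adjusted p = 0.321). Both genes were lower in each null library than in each control library, by differences that did not pass the test. The 2 control and 2 null libraries did not overlap for 5 of the 7 members with at least 20 UMIs, against 50% of all genes, so this separation is common in these libraries. For 3 of the 7 (Fgf10, Fgf15 and Fgfr1) the E9.5 libraries differed the other way with counting intervals apart, against 9.5% of all genes. The E10.5 separation of Fgf15 was absent in mesenchymal cells that met neither other class rule, as given below.

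Fgfr3 had the largest difference of the receptors, with mesenchymal means of 3.92 ± 2.74 (SD, n = 2) in control and 14.3 ± 3.78 in null libraries and a log2 difference of 1.68 ± 0.48 (edgeR adjusted p = 0.247). Without control E10.5 replicate 1 it was called (2.61, edgeR adjusted p = 0.00919), in a fit that holds 1 control library and assumes that it varies like the null pair, and over its alternatives the difference ran from 1.09 to 2.61 and the adjusted p from 3.53e-06 to 0.672. Fgf15 had means of 3.39 ± 1.40 and 6.82 ± 0.234 (0.83 ± 0.33, edgeR adjusted p = 0.317), Fgf18 differed by 1.09 ± 0.65 (0.461) and Fgfr2 by -0.20 ± 0.19 (0.636). Of the null libraries only 1 was high for Fgf18 (2.62 CPM), and the other (0.573) lay within the controls (0.555 and 0.695). With 1 library left out the Fgf18 difference ran from -0.22 to 1.81.

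Neural genes moved with Fgfr3 and Fgf15 in these mesenchymal sums. The 6 neural check genes (Sox1, Sox3, Pax6, Nes, Zic1 and Hes5) summed to 168 and 69.2 CPM in control and 252 and 469.5 in null mesenchymal cells at E10.5, against 39.9 at E8.5 and 79.0 and 75.1 at E9.5. The share of mesenchymal cells that also met the neural rule was 8.34% and 1.19% in control and 17.5% and 24.1% in null libraries. In mesenchymal cells that met neither other rule, Fgfr3 was 2.67 and 1.69 in control and 5.83 and 11.1 in null libraries (log2 difference 1.76, edgeR adjusted p = 0.229), and Fgf15 was 3.53 and 2.35 against 2.71 and 3.41 (-0.12). The part of neural RNA in the Fgfr3 difference was not tested.

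The makeup of the mesenchyme moved as well. Caudal Hox cells were 40.0% and 28.7% of it in control and 65.7% and 88.3% in null libraries at E10.5, distal cells 47.4% and 44.2% against 24.1% and 6.18%, and Hox-free cells 16.3% and 24.0% against 5.08% and 2.10%. In bulk sums of a class, fewer cells of a kind and less RNA per cell cannot be told apart. In caudal Hox cells alone, a subset chosen after the data were seen, the Fgfr3 difference was 1.09 (edgeR adjusted p = 0.388), with 9.66 and 3.24 CPM in control and 13.4 and 17.3 in null libraries. Over all alternatives run, this subset among them, Fgf10 differed by -1.44 to -0.72 and Fgfr1 by -0.68 to -0.35, and neither was called.

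In Sox10 cells 0 of the 4 members tested were called, against 0.0154% of all genes (2 of 12990), with 1 of the 4 at an unadjusted p under 0.05, against 9.59% of all genes, and 0 called by DESeq2, against 0.531%. That member was Fgf15 (edgeR adjusted p = 0.363), with 0 and 1 UMIs in the control and 23 and 27 in the null libraries. It passed the filter on low counts through the null libraries, and no size is given against a control group of 1 UMI. In neural cells 0 of the 5 tested were called, where 0% of the 15283 genes tested were, and 0 of the 5 had an unadjusted p under 0.05, against 5.16% of all genes (DESeq2 called 0.268% of all genes and 0 members). Fgfr3 in neural cells had means of 31.4 ± 12.1 (SD, n = 2) in control and 32.5 ± 0.207 in null libraries, and its log2 difference was -0.03 ± 0.30.

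**Figure D5:**
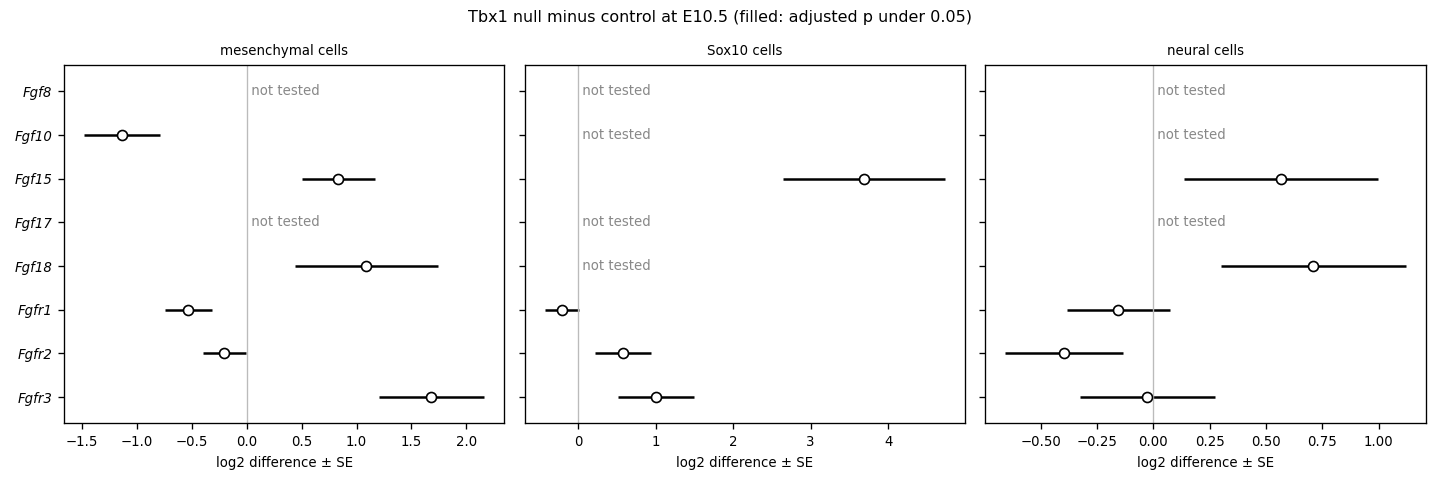
Log2 differences of null minus control libraries at E10.5 (x axis, points with bars of 1 SE, 2 libraries per genotype) for the members (y axis) in mesenchymal, Sox10 and neural cells, filled where the edgeR adjusted p is under 0.05. No point is filled: the mesenchymal differences run from -1.14 for Fgf10 to 1.68 for Fgfr3. The Sox10 point of Fgf15 belongs to a gene that passed the low-count filter through the null libraries only, and its size is not read.

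Whether the null effect differed between mesenchymal and neural cells at E10.5 was tested as an interaction in cells of exactly 1 class. Of the 5 members that passed the low-count filter in both classes 0 were called by edgeR, where 0.0126% of all genes were, 1 (Fgfr3) had an unadjusted p under 0.05, against 8.35%, and DESeq2 called 1, again Fgfr3, against 1.2%. Fgfr3 had the largest interaction among the receptors, 1.76 ± 0.27 on the log2 scale (edgeR adjusted p = 0.127). It was called when null E10.5 replicate 1, control E10.5 replicate 1 or control E10.5 replicate 2 was left out (2.29, 1.87 and 1.65, with edgeR adjusted p = 0.0254, 0.00417 and 0.0401), each fit leaving 1 library in an arm, and not when null E10.5 replicate 2 was. No interaction is given for Fgf10, which passed the low-count filter in mesenchymal cells alone.

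The pathway lists gave no call between null and control at E10.5 in any class, nor in the interaction. The median log2 difference of the target and feedback genes was -0.43 in mesenchymal, -0.37 in Sox10 and 0.02 in neural cells, against -0.02, 0.02 and 0.03 over all genes. Spry4 (-0.87 ± 0.43), Etv4 (-0.60 ± 0.40), Dusp6 (-0.46 ± 0.38) and Il17rd (-1.12 ± 0.26) had negative mesenchymal differences with edgeR adjusted p = 0.392, 0.505, 0.583 and 0.222. Among the other ligands Fgf5 differed by 0.93 ± 0.29 (edgeR adjusted p = 0.251), and the medians of the other ligands, receptor partners and transducers in mesenchymal cells were -0.02, 0.09 and -0.19.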

How the data were processed

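Libraries of 10x Genomics 3′ single-cell RNA from 7 pools of sorted cells were analysed. The deposited values were raw UMI counts per gene and cell, made by the authors with Cell Ranger 6.0.1 on genome build mm10, per the submitters' processing notes. The kit was v2 at E8.5, v3.1 for control E9.5 and E10.5 and null E10.5 replicate 2, and v3 for the other null libraries. Strand use in counting was not given in the sources used here. Total counts were 140264662 to 234844769 UMIs per library.

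A minimum of 1000 genes and a maximum of 10% of UMIs from mitochondrial genes were set for each cell, and Scrublet doublets (0.8% expected per 1000 barcodes) were removed. Pairs of libraries shared at most 0.41% of the smaller library's barcodes. UMIs were summed per library and class and tested in R 4.3.3 with edgeR 4.0.16 (TMM, filterByExpr, glmQLFTest), with DESeq2 1.42.0 as an alternative. The code was tested on simulated data. The study's own test on cells was replaced, since cells are not replicates. The 2 libraries of a group at E10.5 are biological replicates by the study's account, but separate litters are not stated, so p-values measure the spread between libraries.

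The members, gene lists and gates were chosen with earlier results of these data known. All 8 members are named, list genes where called or as examples, and for each member the 3 genes with the most similar levels. The check of Sox10 cells against their own marker genes is not reported here.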

Additional observations from a re-analysis of the deposited data

Results flagged for a closer look

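In mesenchymal cells 3 members differed between null and control in one direction at E9.5 and in the other in both null libraries at E10.5. They are 3 of the 7 members with at least 20 UMIs at both stages, and 9.5% of all genes with as many UMIs met the same rule. Fgf10 had a null to control ratio of 1.63 (95% interval 1.21 to 2.21) at E9.5, while at E10.5 the null libraries held 1.12 and 1.88 CPM against 2.62 and 3.08. Fgfr1 had a ratio of 1.25 (1.20 to 1.30) at E9.5, while at E10.5 null libraries held 65.2 and 58.3 against 81.3 and 76.5. Fgf15 had a ratio of 0.814 (0.703 to 0.942) at E9.5, while at E10.5 null libraries held 6.66 and 6.99 against 4.38 and 2.39. Among mesenchymal cells that met neither other class rule, however, the null and control levels of Fgf15 overlapped at E10.5. With 1 library per genotype at E9.5, the difference between the stages was not tested, the dissected tissue differed between them, and the control and null E9.5 libraries were made with different kits.

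Cells that met none of the 3 class rules, 5.22% to 17.3% of a library, also held ligand UMIs. At E8.5 these 605 cells held 56.5 CPM of Fgf8 (95% interval 52.0 to 61.2) and 21.2 of Fgf17 (18.5 to 24.1), above the neural levels of 45.4 and 15.0. Fgf18 in such cells was 4.64 in the control and 5.39 in the null E9.5 library, 36.2 and 33.5 in the control E10.5 libraries and 48.5 and 39.6 in the null E10.5 libraries, above its level in each of the 3 classes. Neurons by the Elavl3 and Elavl4 gate, applied to these cells after the data were seen, were 63.3% to 70.2% of them at E10.5. In those neurons Fgf18 stood at 48.6 and 51.5 in control and 75.0 and 50.8 in null E10.5 libraries. The 3 class rules therefore missed the cells with the highest Fgf18 level at E10.5.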

How the results depend on the processing

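Of the 24 member differences called, 7 belong to members that passed the low-count filter on 1 side only and are left out of the counts of this paragraph. Of the other 17, 0 reversed under any alternative run, 11 were called under every one, and 1 more under every one that tested it (Fgf18 by Dlx5 or Dlx6, too low to be tested with thinned cells). The remaining 5 are Fgfr2 by stage, Fgfr1 in mesenchymal against neural cells, Fgf15 and Fgfr3 by caudal Hox and Fgf10 by Dlx5 or Dlx6. With 2 libraries a group, and few UMIs of Fgf8, Fgf10, Fgf17 and Fgf18, small differences were not detectable; the cause of each change was not tested.

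The number of members called moved as follows. Here every member tested is counted, those that passed the low-count filter on 1 side only among them. Calls of that kind, which had to differ, were 1 of 6 for mesenchymal against neural and 3 of 5 for mesenchymal against Sox10. They were 2 of 4 for Sox10 against neural and 1 of 3 for caudal Hox, so no support is drawn from the counts of these comparisons. Between null and control at E10.5, 0 in mesenchymal and 0 in Sox10 cells became 1 and 1 with no filter on low counts, and 1 with DESeq2 in mesenchymal cells; leaving out 1 library gave 0 to 1 in mesenchymal, 0 to 0 in Sox10 and 0 to 0 in neural cells. By stage in mesenchymal cells 1 became 3 without TMM factors, 2 with no filter, 3 with thinned cells, 4 with stricter gates (4 UMIs) and 2 in caudal Hox cells of 1 class (Fgf10 and Fgfr1, with Fgfr2 lost), stayed at 1 in all caudal Hox cells (Fgf10 in place of Fgfr2), and 0 to 3 on leaving out 1 library. By stage in Sox10 cells 0 became 1 without TMM factors, with no filter and with stricter gates (0 to 1 on leaving out 1 library). By stage in neural cells 0 became 1 with DESeq2 size factors, 2 without TMM factors, 2 with DESeq2, 3 with no filter, 1 with doublets kept, 2 with thinned cells, 2 in cells of 1 class, 1 with stricter gates and 1 without neurons (0 to 2 on leaving out 1 library). Thinned cells gave 3 in place of 5 for mesenchymal against Sox10, 1 in place of 3 for caudal Hox and 3 in place of 5 for Dlx5 or Dlx6. Leaving out 1 library gave 5 to 6, 5 to 6 and 4 to 5 for mesenchymal against neural, mesenchymal against Sox10 and Sox10 against neural, 0 to 3 for caudal Hox, 4 to 6 for Dlx5 or Dlx6 and 0 to 1 for the interaction, which became 1 with DESeq2 and 1 with no filter.

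Over all genes, 16 mesenchymal calls between null and control became 704 with DESeq2 and 1409 with no filter, 2 in Sox10 cells 69 and 334, 0 in neural cells 41 and 146, and 2 for the interaction 190 and 775. By stage 3884 mesenchymal calls became 6353 without TMM factors, and 1356 neural calls 3498, or 2688 with DESeq2 and 3145 with no filter. Thinning took 4706 to 2667 for mesenchymal against Sox10 and 5646 to 1349 for Dlx5 or Dlx6.

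Differences that did not pass and changed sign were these (log2). Between null and control, mesenchymal Fgf15 was -0.040 with thinned cells, -0.12 in cells of 1 class and -0.45 in caudal Hox cells of 1 class, Fgf18 -0.11 with stricter gates, Fgfr2 0.063 in caudal Hox cells and 0.17 in those of 1 class, Sox10 Fgfr1 0.41 with thinned cells, and neural Fgfr3 0.043 without TMM factors, 0.013 with doublets kept and 0.026 without neurons. By stage, mesenchymal Fgf15 was -0.29 in caudal Hox cells and -0.84 in those of 1 class, Sox10 Fgfr1 0.15 without TMM factors, Sox10 Fgfr2 0.17 without TMM factors and 0.11 with doublets kept, neural Fgfr1 0.32 without TMM factors, 0.019 with thinned cells and 0.13 without neurons, and neural Fgfr2 0.014 without TMM factors. By caudal Hox, Fgfr1 was 0.0094 in cells of 1 class. Fgf8 in mesenchymal against neural cells was -0.47 with doublets kept, and the interaction was -0.084 with doublets kept, -0.046 at 200 genes and 5% mitochondrial UMIs and -0.96 with stricter gates for Fgf18, and -0.18 with thinned cells for Fgfr2. Leaving out 1 library, null against control ran from 0.47 to 1.29 for mesenchymal Fgf15, -0.22 to 1.81 for mesenchymal Fgf18, -0.38 to 0.052 for neural Fgfr1 and -0.43 to 0.46 for neural Fgfr3. The stage difference ran from -0.22 to 0.99 for mesenchymal and -2.79 to 0.54 for Sox10 Fgf15, -0.18 to 0.14 for neural Fgfr1 and -0.69 to 0.054 for neural Fgfr2. Fgf8 in mesenchymal against neural cells ran from -0.13 to 0.34, and the interaction from -0.45 to 0.96 for Fgf18 and -0.012 to 0.55 for Fgfr2.

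The E10.5 libraries of both genotypes share replicate numbers, which mark no common litter or day. With the replicate block 0 members were called between null and control in mesenchymal, 0 in Sox10 and 0 in neural cells, neural Fgfr3 was 0.034, and calls over all genes went from 16 to 94, 2 to 260 and 0 to 31.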

Other observations

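The genes whose levels were most like each member's were sought over the 21 sums of 7 libraries by 3 classes, on log2(CPM + 1), among 9456 genes with a mean of at least 5 CPM. Pearson's r is given as a description with no p, since the sums share libraries, depth and, through cells that meet more than 1 rule, cells. For Fgf8 these were En1 (0.97), Bnip3l (0.85) and Lbhd1 (0.79), and for Fgf17 En1 (0.94), Ehbp1 (0.82) and Bnip3l (0.78), both resting on the neural sum at E8.5. For Fgf10 they were Tpd52l1 (0.91), Ramp2 (0.87) and Arhgap29 (0.84), for Fgf15 Fhl1 (0.97), Mapk12 (0.95) and Irx2 (0.92), and for Fgf18 Gm2694 (0.86), Fbxo16 (0.86) and Sox21 (0.84). Among the receptors, Fgfr1 was nearest to Armcx6 (0.93), Fat1 (0.92) and Rps6ka6 (0.92), Fgfr2 to Cacna1g (0.99), Pantr1 (0.97) and Epha7 (0.96), and Fgfr3 to Adcyap1r1 (0.99), Dmrtb1 (0.99) and Zic4 (0.99).

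Within the E8.5 neural cells the receptors Fgfr2 and Fgfr3 showed the reverse of the Fgf8 subfamily. Fgfr2 stood at 10.1 CPM in En1 cells, 19.9 in Otx2 cells and 18.0 in Hox cells, 0.506 times the Otx2 level (95% interval 0.436 to 0.587). Fgfr3 stood at 1.49, 3.48 and 4.85, 0.426 times the Otx2 level (0.287 to 0.623). Fgfr1 differed little, at 50.5, 46.3 and 39.6.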
